A study of Mus musculus with 9 samples.

Results

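The genes described here make ribosomes. They are 35 genes whose proteins transcribe, cut, modify and assemble ribosomal RNA in the nucleolus, chosen by name for their known part in ribosome biogenesis. Of these, 34 had a probeset named to that gene alone, out of 19938 genes so named, and all 34 were among the 14953 genes bright enough to be tested. Noc2l was matched to no named probeset and is not analysed here. The tissue was epithelium scraped off the colon of C57BL/6J mice, which are an inbred strain, all male and aged 9 to 11 weeks. All mice, controls included, ate a diet with 40% of its energy from fat for a run-in of 1 week, after which they kept to it or ate it with heme added at 0.2 µmol per g, the iron pigment of red meat. RNA of the mice of a diet and day was combined, 4 mice in each pool and 3 in the control pool of day 2, and every pool went on 1 whole-transcript array. Control mice were sampled on days 0, 2, 4, 7 and 14 (5 pools) and heme-fed mice on days 2, 4, 7 and 14 (4 pools), day 0 being when the run-in ended. The study asked, per its title, which effects of heme on the colon come at once and which are delayed, and whether the tissue then overgrows, so heme days 2 and 4 are called early and days 7 and 14 late.

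A ribosome starts as a long precursor RNA that RNA polymerase I copies from the ribosomal DNA repeats in the nucleolus. Small nucleolar RNAs, each held in a protein particle, guide the methylation and pseudouridylation of this precursor, and large assemblies then cut it into the RNAs of the small and the large subunit while ribosomal proteins are added. Cells that grow and divide need many ribosomes, and Myc, working with its partner Max, is known to drive many of these genes. In the colon, dividing cells lie in the lower part of the crypts.

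As a group the 34 genes stayed close to their control level on heme. Averaged over the genes, the log2 expression of the control pools of days 0, 2, 4, 7 and 14 was 8.25, 8.29, 8.21, 8.26 and 8.34. The heme pools of days 2, 4, 7 and 14 stood at 8.29, 8.32, 8.23 and 8.21. All 4 heme values lay inside the control range, which ran from day 4 (lowest, 8.205, against 8.214 in the heme pool of day 14) to day 14 (highest). The members also varied little within a diet, with a median SD of 0.0705 log2 over the 5 control pools and 0.0726 over the 4 heme pools, beside 0.0734 and 0.1011 for all genes tested.

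**Figure D1:**
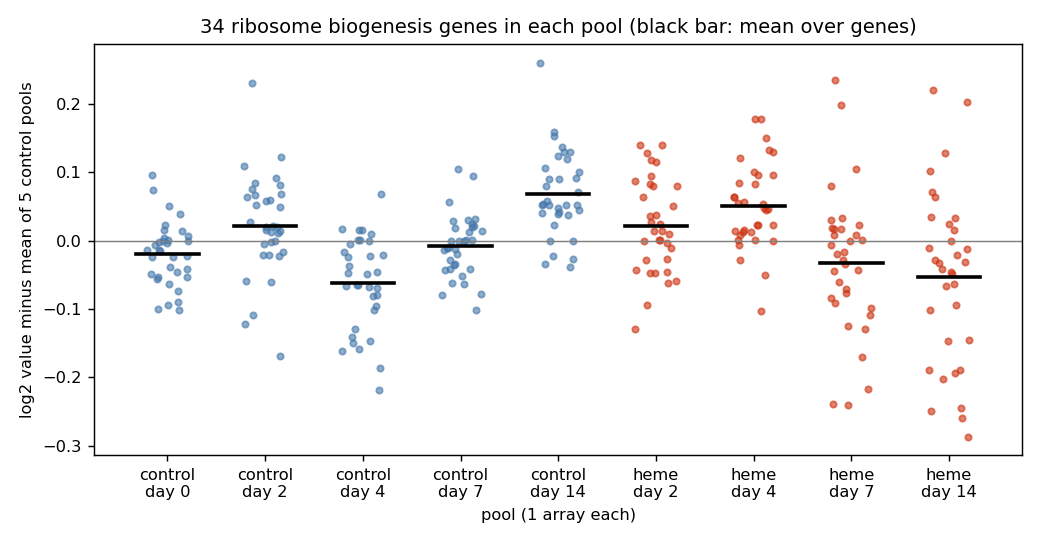
Each point is 1 of the 34 ribosome biogenesis genes in 1 pool, as its log2 value minus its own mean over the 5 control pools (vertical axis), with control pools in blue, heme pools in red and the mean over genes as a black bar. The bars of the heme pools, at 0.02, 0.05, -0.03 and -0.05 for days 2, 4, 7 and 14, lie between those of the control pools of day 4 (-0.06) and day 14 (0.07).

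Over all 4 heme pools against the 5 control pools, none of the 34 members was called. A call here means an adjusted p under 0.05 in limma, with the Benjamini-Hochberg adjustment made across the 14953 genes. In this comparison 0.669% of all genes were called (0.595% higher and 0.0736% lower). Without adjustment 3 members had a p under 0.05, Fbl and Polr1c on the higher and Tsr1 on the lower side, or 8.82% of the members beside 17.0% of all genes. The members' log2 differences, heme minus control, ran from -0.14 to 0.15 with a median of -0.0040, and 15 of 34 lay above 0. Their 95% intervals reached at most from -0.27 to 0.26, so a change of 0.5 log2 in any of them lies outside its interval in this fit. There is no second pool of any diet and day, so the spread behind every p-value is that between pools of different days and not between animals. In scraped tissue, a lower value can mean fewer cells of a type or less RNA per cell, and these cannot be told apart.

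Early and late heme pools differed in the direction of the small shifts. On early heme 26 of 34 members lay above the control mean (median log2 difference 0.0474, all genes 0.0028), and 0 were called, beside 0.234% of all genes (0.214% higher and 0.0201% lower). The 2 early members with an unadjusted p under 0.05 were Nop2 and Polr1b, each with a log2 difference of 0.13, which is 5.88% of the members beside 6.35% of all genes. On late heme 25 of 34 lay below the control mean (median -0.0489, all genes -0.0039), and 3 were called, Tsr1 and Wdr43 lower and Nhp2 higher. That is 8.82% of the members, under the 13.7% of all genes called in the late comparison (5.22% higher and 8.45% lower). An unadjusted p under 0.05 was reached by 2 members on the higher and 6 on the lower side, or 23.5% beside 30.5% of all genes. Brighter genes leaned down too. Among genes at or above the median of gene means, the late median was -0.0392 for all genes and -0.0491 for the 33 members kept. The late lean of the group changed with the scaling. When the arrays were quantile-normalized once more, the late median was 0.0010 and 16 of 34 members lay below 0, and when each array was centred on its median these were -0.0593 and 27 of 34. It was also smaller without the control pool of day 14 (-0.0237, 20 of 34 below 0) and without the heme pool of that day (-0.0235, 21 of 34). The heme pool of day 14 has the lowest upper quartile of the 9 arrays, at 7.673 log2 against 7.745 to 7.794 in the others, and under that second normalization its member mean moved from -0.0533 to 0.0213 against the control pools. With the day as a block, which sets each heme pool against the control pool of its own day, 0 members were called on late heme (median -0.0640, 30 of 34 below 0). Without the heme pool of day 7, which leaves only that of day 14 as late, the median was -0.0375 (all genes -0.0011) with 23 of 34 below 0.

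**Figure D2:**
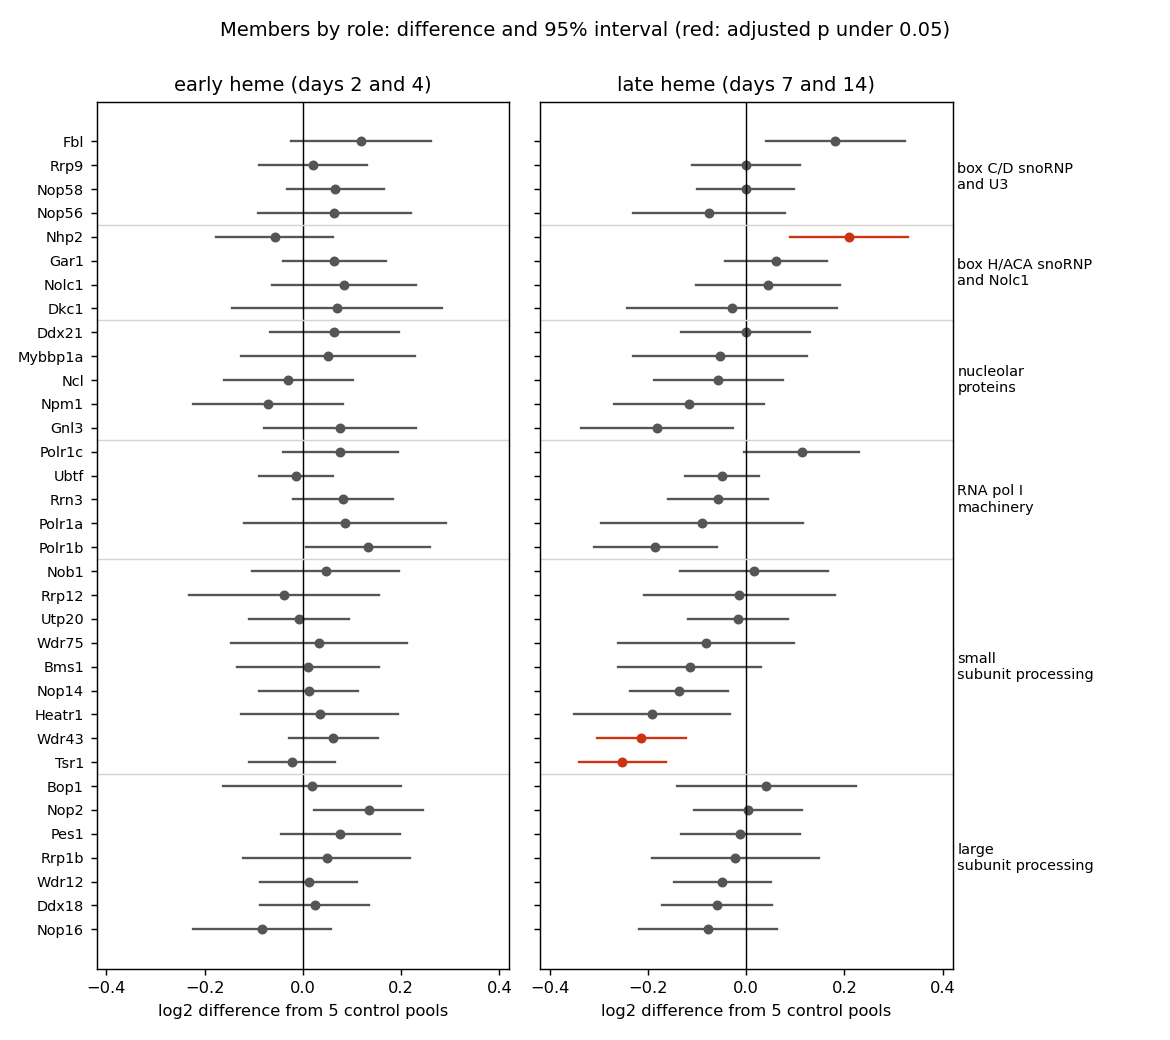
Log2 difference from the 5 control pools (horizontal axis) of each of the 34 members, in order of role, for the early heme pools (left) and the late heme pools (right), with points for the estimates, lines for their 95% intervals and red for an adjusted p under 0.05. No member is red on the left, and on the right Nhp2 (0.21) lies to the right of 0 and Wdr43 (-0.21) and Tsr1 (-0.25) to the left.

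The machinery of RNA polymerase I, which opens the pathway, had 0 of 5 members called on late heme, beside 13.7% of all genes. Polr1b encodes the second-largest subunit of the enzyme. It read 8.30, 8.34, 8.21, 8.33 and 8.38 log2 in the control pools, given here and from now on in the order of days 0, 2, 4, 7 and 14. In the heme pools, in the order of days 2, 4, 7 and 14, it read 8.40, 8.49, 8.19 and 8.07. Both early heme pools stood above all control pools and both late ones below, with day 14 the lowest of all. The late log2 difference was -0.19 (SE 0.056, adjusted p = 0.0575 in limma), and the early one 0.13 (SE 0.056, adjusted p = 0.746). Polr1c, a subunit shared by RNA polymerases I and III, went the other way: its control pools read 8.60, 8.55, 8.57, 8.56 and 8.60, and its heme pools 8.70, 8.60, 8.60 and 8.78. On each of the 4 days it was higher on heme than on the control diet, with the gap of days 2 and 14 larger than that of days 4 and 7, and its late log2 difference was 0.11 (SE 0.052, adjusted p = 0.175). Rrn3, the initiation factor that ties polymerase I to its promoter, Ubtf, which binds the ribosomal DNA, and Polr1a, the largest subunit, had late log2 differences of -0.06, -0.05 and -0.09. Ubtf was below every control pool in the heme pools of days 2, 7 and 14, at 8.8293, 8.7806 and 8.8373 against a control low of 8.8405.

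The proteins of the box C/D particles, which methylate ribosomal RNA, had 0 of 4 members called on late heme, beside 13.7% of all genes. Fbl encodes fibrillarin, the methyltransferase of these particles. Its control pools of days 0, 2, 4, 7 and 14 read 7.75, 7.53, 7.61, 7.68 and 7.71 log2, and its heme pools of days 2, 4, 7 and 14 read 7.79, 7.75, 7.89 and 7.78. Every heme pool stood above every control pool, though the heme pool of day 4 (7.7496) and the control pool of day 0 (7.7495) were level. Fbl was the only 1 of the 34 members for which this held, beside 3.26% of all genes, and 0 members had every heme pool below every control pool, beside 2.33%. The log2 difference was 0.15 over all heme pools (SE 0.051, adjusted p = 0.218 in limma) and 0.18 on late heme (SE 0.063, adjusted p = 0.0888). Fbl has 2 probesets on the array, and the dimmer one gave a late difference of 0.19. The brighter one, from which the values above come, may lie on another copy of the gene. Nop56, a core protein of the same particles, read 9.14, 9.20, 9.04, 9.04 and 9.27 in the control pools and 9.13, 9.27, 9.03 and 9.09 in the heme pools. The groups overlapped, and its late log2 difference was -0.08 (adjusted p = 0.484). Nop58, the partner of Nop56, and Rrp9, a protein of the U3 particle, had late differences of -0.0009 and 0.0003.

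The box H/ACA particles turn uridines of ribosomal RNA into pseudouridine. They held the only 1 of the 34 members called higher on late heme, beside 5.22% of all genes. Nhp2, one of their core proteins, read 8.19, 8.11, 8.12, 8.19 and 8.25 log2 in the control pools and 8.04, 8.19, 8.37 and 8.39 in the heme pools. Both late heme pools lay above all control pools and the heme pool of day 2 below them. On late heme Nhp2 was 1.16-fold higher (log2 difference 0.21, SE 0.053, adjusted p = 0.0313 in limma). Leaving out a single pool ended this call for the control pools of days 0, 2, 4 and 7 (adjusted p = 0.0544, 0.0614, 0.0600 and 0.0583) and the heme pool of day 14 (0.193), and so did blocking on the day (0.206). Dkc1, the pseudouridine synthase itself, read 7.98, 7.96, 7.79, 7.93 and 8.24 in the control pools and 8.07, 8.02, 7.94 and 7.97 in the heme pools. Its heme pools lay well inside the control range, which the day 14 pool stretched upward, and its late log2 difference was -0.03 (adjusted p = 0.867). Gar1, another core protein, and Nolc1, a chaperone of these particles, had late differences of 0.06 and 0.04.

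Nucleolar proteins of broader roles had 0 of 5 members called on late heme, beside 13.7% of all genes. On late heme 5 of 5 lay below the control mean (3 of 5 with the second quantile normalization, where Ddx21 stood at 0.0522). Gnl3, nucleostemin, a GTP-binding protein of dividing cells, read 7.71, 7.86, 7.71, 7.75 and 7.87 log2 in the control pools and 7.75, 7.96, 7.61 and 7.59 in the heme pools. The heme pool of day 4 was the highest of the 9 and the late heme pools were the lowest. The late log2 difference was -0.18 (SE 0.069, adjusted p = 0.114 in limma). Ddx21, a helicase that senses polymerase I transcription and takes part in RNA processing, read 8.72, 8.79, 8.59, 8.75 and 8.82 in the control pools and 8.80, 8.80, 8.74 and 8.72 in the heme pools. Those of heme all lay within the control range, and the late difference was -0.0010 (adjusted p = 0.993). Npm1 and Ncl, the abundant histone and RNA chaperones of the nucleolus, stood at -0.12 and -0.06 on late heme, and Mybbp1a, which restrains polymerase I, at -0.05. Npm1 has near-identical processed copies in the genome, and its probes may pick up more than 1 of them.

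Processing of the small subunit had the lowest late median of the roles with the deposited scaling. It had 2 of 9 members called lower on late heme, beside 8.45% of all genes called lower, and 8 of 9 below the control mean, with a median log2 difference of -0.1150. With the second quantile normalization this median was -0.0556, level with the -0.0557 of nucleolar proteins, and in the heme pool of day 14 alone the mean of nucleolar proteins was lower (-0.1328) than that of small-subunit genes (-0.1119). Tsr1, a GTPase-like factor that holds the maturing small subunit until it is ready, read 9.77, 9.83, 9.72, 9.75 and 9.73 log2 in the control pools of days 0, 2, 4, 7 and 14. In the heme pools of days 2, 4, 7 and 14 it read 9.71, 9.76, 9.54 and 9.47. The heme pool of day 4 lay among the control pools, that of day 2 just below them, and the late ones clearly below all of them. Tsr1 fell by 0.25 log2 on late heme, a level 1.19-fold lower (SE 0.039, adjusted p = 0.00379 in limma).

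Wdr43, a subunit of the complex that joins transcription of ribosomal DNA to the first cuts of its RNA, showed the same late step from a higher start. Its control pools read 9.09, 9.15, 9.12, 9.17 and 9.18 log2 and its heme pools 9.17, 9.24, 8.90 and 8.96. The heme pool of day 4 was the highest of all and both late heme pools were below every control pool. On late heme Wdr43 fell by 0.21 log2, 1.16-fold (SE 0.040, adjusted p = 0.0088). The calls of Tsr1 and Wdr43 held without each of the 9 pools in turn, with adjusted p up to 0.0489 and 0.0441, and under both other scalings. They were lost with the day as a block, where the log2 differences were -0.23 and -0.25 (adjusted p = 0.0655 and 0.0543).

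Nop14, a factor of the early small-subunit particle, read 7.85, 7.89, 7.91, 7.88 and 7.94 log2 in the control pools and 7.91, 7.90, 7.81 and 7.70 in the heme pools. It too was below every control pool in both late pools, more so on day 14 (late log2 difference -0.14, SE 0.045, adjusted p = 0.0738 in limma). Heatr1, which acts in the same complex as Wdr43, had a late difference of -0.19 (adjusted p = 0.105). Nob1, the nuclease that makes the final cut of the small-subunit RNA, read 7.85, 7.68, 7.86, 7.95 and 7.91 in the control pools and 7.89, 7.91, 7.85 and 7.88 in the heme pools. It lay inside the control range in each heme pool, with a late difference of 0.02 (adjusted p = 0.896). The remaining small-subunit factors Bms1, Wdr75, Utp20 and Rrp12 had late differences between -0.1150 and -0.0139. In all, 7 of 34 members were below every control pool in both late heme pools, namely Gnl3, Polr1b, Ubtf, Wdr43, Heatr1, Tsr1 and Nop14. That is 20.6% of the members beside 18.2% of all genes, and 4 of the 7 belong to small-subunit processing. Above every control pool were 2 members, Fbl and Nhp2, beside 12.4% of all genes.

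**Figure D3:**
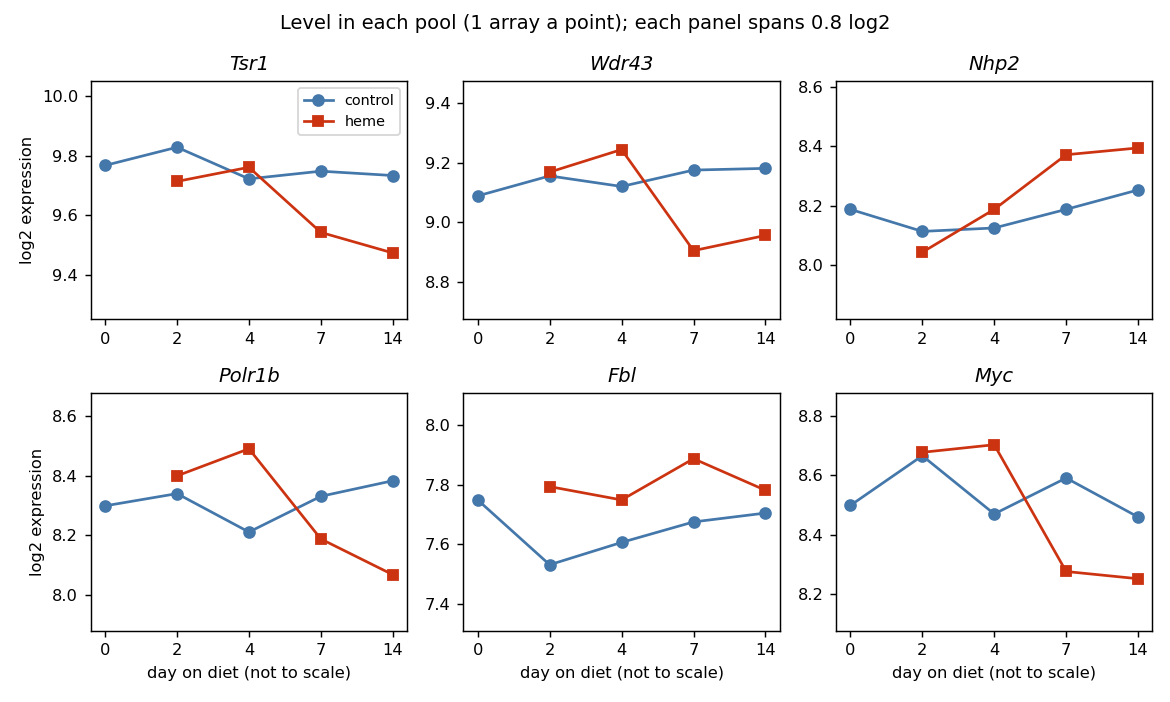
Log2 expression (vertical axis, each panel spanning 0.8 log2) by day on diet (horizontal axis, days in order and not to scale) of 5 members and of Myc, with 1 point per pool, control pools as blue circles and heme pools as red squares. Tsr1, Wdr43, Polr1b and Myc have both late heme pools below all control pools, Nhp2 has both above, and the heme line of Fbl runs above the control line on each day.

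Processing of the large subunit had 0 of 7 members called on late heme, beside 13.7% of all genes. With the probesets kept, it had the smallest late spread of the roles, from -0.08 to 0.04 log2. Bop1, which works with Pes1 and Wdr12 in the complex that matures the large-subunit RNA, read 7.77, 7.98, 7.71, 7.90 and 7.99 log2 in the control pools and 7.82, 7.95, 7.89 and 7.93 in the heme pools. Its control pools were spread wider than its heme pools and enclosed them, and its late difference was 0.04 (adjusted p = 0.768 in limma). Nop16, a factor of the early large-subunit particle, read 8.26, 8.17, 8.21, 8.38 and 8.39 in the control pools and 8.22, 8.18, 8.19 and 8.21 in the heme pools. The control pools of days 7 and 14 stood above the rest, and the late log2 difference was -0.08 (adjusted p = 0.421). Nop2, a methyltransferase of the large-subunit RNA, stood above all control pools in both early heme pools (early log2 difference 0.13, SE 0.049, adjusted p = 0.640) and back at the control mean on late heme (0.0036). Across the members, 4 were above all control pools in both early heme pools, namely Fbl, Polr1b, Rrn3 and Nop2, or 11.8% beside 7.01% of all genes, and 0 were below all of them, beside 4.82%. The other members of this group, Pes1, Wdr12, Rrp1b and Ddx18, had late differences from -0.06 to -0.01. The 2 probesets of Ddx18 went opposite ways on late heme, at -0.06 and 0.05. The 2 of Wdr12 stood at -0.05 (the one kept) and -0.10. The kept probesets of both genes may lie on other copies of them.

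Late heme was then compared with early heme directly. Of the 34 members 17 stood lower in both late heme pools than in both early ones, beside 24.6% of all genes, and 1, Nhp2, stood higher in both, or 2.94% beside 18.8%. Of the members 1 was called, beside 1.22% of all genes (0.401% higher and 0.823% lower): Wdr43 fell by 0.28 log2 from early to late heme (SE 0.048, adjusted p = 0.0350 in limma). Leaving out 1 of these pools ended the call: control of day 2, 4 or 7 (adjusted p = 0.0555, 0.0592 and 0.0598) or heme of day 2, 4 or 14 (0.181, 0.142 and 0.126). Values near the threshold were those of Tsr1 (-0.23, adjusted p = 0.0523), Polr1b (-0.32, adjusted p = 0.0548) and Nhp2 (0.27, adjusted p = 0.0755). The median over the 34 members was -0.0690, beside -0.0075 for all genes, and -0.0348 with the second quantile normalization. With the filter at the median of gene means the medians were -0.0667 for the 33 members kept and -0.0420 for all genes. With arrays centred on their medians they were -0.1037 and -0.0422. Without the heme pool of day 7, which leaves only that of day 14 as late, they were -0.0959 and -0.0035. Markers of other cells in the scrapings averaged higher on late than on early heme. Above 0 were 10 of 10 smooth muscle genes (median 0.6713) and 10 of 10 fibroblast genes (0.5671). So were 7 of 7 of B and plasma cells (0.1694) and 9 of 12 of T cells and macrophages (0.2187), with 0 called. The smooth muscle mean was 0.59 log2 above the control mean in the heme pool of day 7. It was -0.71 on day 14, and -0.89 and -0.40 on days 2 and 4. Net of the control pools of the same days, the medians were -0.5743 for smooth muscle and 0.0674 for fibroblasts. They were 0.1356 for B and plasma cells and 0.1190 for T cells and macrophages. The part of these cells in the members' values was not tested. Day cannot serve as a block in this comparison, because each heme day is either early or late.

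The control pools moved over the same days, which the day-by-day differences show. On day 2, 17 members were higher and 16 lower in the heme than in the control pool, with a mean log2 difference of -0.0001. On day 4, 29 of 34 were higher (mean 0.1132), and on day 7, 13 were higher and 21 lower (mean -0.0253). On day 14, 29 of 34 were lower and 4 higher (mean -0.1212). The day with most members higher is the one whose control pool was the lowest of the 5, and the day with most lower is the one whose control pool was the highest. Only Fbl and Polr1c were higher on heme on all 4 days, or 5.88% of the members beside 10.9% of all genes, and 0 were lower on all 4, beside 12.0%.

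The late diet difference minus the early one, each taken against the control pools of the same days, had a median of -0.1331 over the members, beside -0.0283 for all genes. By this measure 29 of 34 members lay below 0, and 0 were called in limma, as were 0 of all genes. An unadjusted p under 0.05 was reached by 7 members, all on the lower side (Wdr43, Polr1b, Tsr1, Rrn3, Nop16, Heatr1 and Mybbp1a), or 20.6% beside 6.62% of all genes. The median of this measure was -0.0887 with the second quantile normalization, -0.1750 without the control pool of day 7 and -0.0840 without that of day 14. Along the control diet alone, the slope on log2(day + 1) was called in 0 members and 0 of all genes, with 1 member, Ddx18, at an unadjusted p under 0.05, or 2.94% beside 7.18%.

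Across the 9 pools many members varied together. Pearson's r of a member with the mean of the other members is given as a description, over 9 pools that share normalization. It was not taken for genes outside the members, so it has no background beside it. It was highest for Rrn3 (0.89), Heatr1 (0.88), Nop56 (0.85), Ddx21 (0.84), Polr1b (0.84) and Gnl3 (0.84). It was lowest for Nhp2 (-0.38), Polr1c (-0.26), Fbl (-0.17), Gar1 (-0.06), Nob1 (-0.01) and Npm1 (0.02).

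The DNA at the start of these genes was searched for the letters bound by Myc with Max. RefSeq windows from 250 bases before to 50 after the start were given for 30 of the 34 members (build GRCm38.p6) and are not used here for Fbl, Npm1, Bop1 and Rrp12. The E-box CACGTG, which reads the same on both strands, was found in 7 of 30 members (23.3%), beside 8.09% of the 27025 genes with such windows. The stretches around it are printed to show where the motif sits in the members that fell and in those that did not, from 5′ to 3′ on the gene's own strand, with the E-box in capitals. In Tsr1 and Wdr43 the first base of the motif is base 25 and base 18 after the start, at chr11:74898092-74898121 and chr17:71616220-71616249, both on the plus strand.
Tsr1: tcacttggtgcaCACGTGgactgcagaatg
Wdr43: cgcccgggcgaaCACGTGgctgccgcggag
Pes1: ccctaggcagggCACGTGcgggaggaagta
Utp20: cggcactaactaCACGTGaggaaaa
Mybbp1a: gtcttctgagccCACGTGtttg
Nop2: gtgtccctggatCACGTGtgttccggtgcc
Rrn3 (nearer site): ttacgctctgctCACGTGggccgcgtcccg
Rrn3 (farther site): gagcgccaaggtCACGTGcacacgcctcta

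In Pes1, Utp20 and Mybbp1a the motif also lies after the start, and the last stretches stop at the window's end. Counted from the start, it begins at -60 in Nop2 and at -48 and -215 in Rrn3, which has 2. The members that hold the motif had a median late log2 difference of -0.0538 with 6 of 7 below 0, and that of the 23 members whose window lacks it was -0.0491 with 17 of 23 below 0.

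A binding motif of ETS factors, CCGGAAGT on either strand, was also found in 7 of 30 members (Gar1, Nhp2, Polr1c, Rrn3, Heatr1, Tsr1 and Bms1), beside 4.31% of genes. The NRF1 motif was found in 0 of 30, beside 1.07%. The 100 bases before the start are shown for the members called on late heme, so that the start of the gene that rose can be set beside those of the genes that fell, with the ETS motif in capitals. They lie at chr11:51619673-51619772 for Nhp2, chr11:74897980-74898079 for Tsr1 and chr17:71616115-71616214 for Wdr43, all on the plus strand.
Nhp2: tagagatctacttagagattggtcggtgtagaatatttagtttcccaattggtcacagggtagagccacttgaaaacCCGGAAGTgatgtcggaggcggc
Tsr1: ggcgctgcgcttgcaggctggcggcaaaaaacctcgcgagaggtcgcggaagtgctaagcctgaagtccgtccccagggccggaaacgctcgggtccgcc
Wdr43: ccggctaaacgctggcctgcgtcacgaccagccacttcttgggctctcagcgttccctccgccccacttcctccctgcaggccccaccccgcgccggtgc

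Of these 100 bases, 47 are G or C in Nhp2, 68 in Tsr1 and 71 in Wdr43. The ETS motif of Nhp2 begins at -23 from the start. That of Tsr1 does not lie whole within the 100 bases shown, so it is not in capitals, and the window of Wdr43 holds none. These are matches of letters only.

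The wider pathway is given by further lists. Of 108 other measured ribosome biogenesis genes, 0 were called higher and 3 lower on late heme, beside 5.22% and 8.45% of all genes, with a median log2 difference of -0.0473 and 78 of 108 below 0 (55 of 108 with the second quantile normalization). The 3 were Nop53, a large-subunit factor (-0.34, adjusted p = 0.00263 in limma), Znhit6, which assembles box C/D particles (-0.28, adjusted p = 0.0216), and Mdn1, the giant ATPase that strips factors from the large subunit (-0.33, adjusted p = 0.0262). Nop53 kept its call with the day as a block (adjusted p = 0.0208), and Znhit6 and Mdn1 lost theirs there (0.0680 and 0.111) and without the heme pool of day 14 (0.185 and 0.271). The mean of this list against the control pools was -0.0262 in the heme pool of day 7 and -0.0873 in that of day 14. On early heme 0 of 108 were called and 76 lay above 0.

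Cytosolic ribosomal proteins had 8 of 52 called lower and 0 higher on late heme, beside 8.45% and 5.22% of all genes, with a median of -0.0704, and on early heme 0 called and a median of -0.0419. The lowest p-values were those of Rpl36a (-0.18, adjusted p = 0.00722), Rps4x (-0.11, adjusted p = 0.0244) and Rpl37a (-0.16, adjusted p = 0.0244). With the day as a block 1 of 52 was called lower, and without a single control pool 2 to 5 were. Ribosomal protein genes have many processed copies, so their probes may not be specific.

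Among 4 genes that host small nucleolar RNAs, Gas5, whose introns carry box C/D RNAs, fell by 0.36 log2 on late heme (adjusted p = 0.000999, or 0.0115 in the blocked fit). Its control pools read 11.18, 11.20, 11.25, 11.18 and 11.16 and its heme pools 11.00, 11.13, 10.80 and 10.87. All 4 heme pools lay below all control pools, the late ones farthest.

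Myc itself was lower on late heme. It read 8.50, 8.67, 8.47, 8.59 and 8.46 log2 in the control pools and 8.68, 8.70, 8.28 and 8.25 in the heme pools, so that the early heme pools were the highest of all and the late ones the lowest. Myc fell by 0.27 log2 on late heme (SE 0.058, adjusted p = 0.0154 in limma), and by 0.43 from early to late heme (adjusted p = 0.0296). Max, at 9.90, 9.89, 9.85, 9.91 and 9.91 in the control pools and 9.85, 9.85, 9.68 and 9.61 in the heme pools, was below every control pool in both late pools only. It fell by 0.24 log2 (adjusted p = 0.00189, or 0.0302 in the blocked fit). The late call of Myc was lost with the block (adjusted p = 0.0967) and without the heme pool of day 14 (0.127). Mga, a further partner of Max, was also called lower (-0.36, adjusted p = 0.0377), a call lost with the block (0.132) and without any single pool except the heme pool of day 7 (up to 0.383). Of the 12 genes on the list of Myc and its partners, 3 were thus called lower and 0 higher on late heme, beside 8.45% and 5.22% of all genes.

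Genes that feed ribosome use were mixed. Of 16 genes of purine and pyrimidine synthesis, 1 was called higher and 2 lower on late heme, beside 5.22% and 8.45% of all genes. Nme1, a nucleoside diphosphate kinase, rose by 0.42 log2 (adjusted p = 0.00487 in limma). Umps and Paics, enzymes of pyrimidine and purine synthesis, fell by 0.21 and 0.20 (adjusted p = 0.0184 and 0.0291). Umps was not called with the second quantile normalization (adjusted p = 0.0818). In the blocked fit only Nme1 was called (Umps 0.0519, Paics 0.126), and without the heme pool of day 14 Nme1 was not (0.0680). Of 17 translation initiation genes, 1 was called higher and 1 lower, beside the same shares. Eif4ebp1, which encodes a repressor of cap-dependent translation, rose by 0.50 (adjusted p = 0.00151), from 7.26 to 7.49 in the control pools to 7.93 and 7.91 in the late heme pools. Eif4b, a helper of the cap-binding complex, fell by 0.15 (adjusted p = 0.0332, and 0.205 with the block).

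Genes of cell division were higher in the late heme pools. On late heme, where 5.22% of all genes were called higher, this held for 24 of 24 mitosis genes, with a median log2 difference of 0.6210. It held for 7 of 24 DNA replication genes, with a median of 0.2405. With the day as a block these counts were 17 and 2, and the replication count was 13 without the control pool of day 14 and 3 without the heme pool of day 14. On early heme 0 of either list were called, beside 0.234% of all genes, with medians of 0.2100 and 0.0330. The members' medians in the same comparisons were -0.0489 and 0.0474. With the second quantile normalization the late medians were 0.6602 for mitosis, 0.2893 for DNA replication and 0.0010 for the members, 16 of 34 of which then lay below 0.

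**Figure D4:**
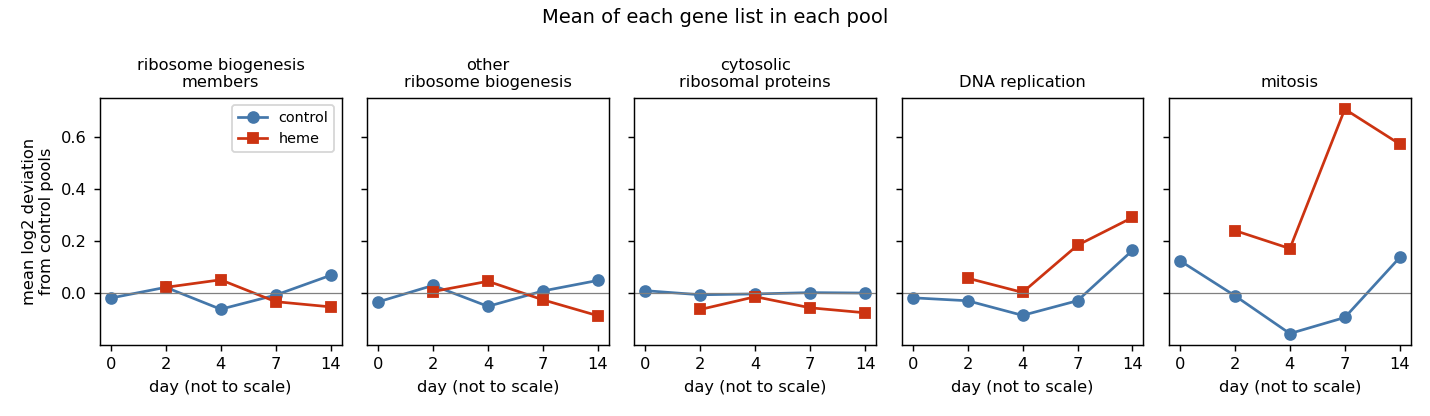
Mean log2 deviation from the control pools (vertical axis, shared) of the 34 members and of 4 other gene lists, by day (horizontal axis, days in order and not to scale), with control pools in blue and heme pools in red. In the late heme pools mitosis genes stand at 0.71 and 0.57 and DNA replication genes at 0.18 and 0.29, while the members stand at -0.03 and -0.05, a pair of values inside their control range.

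Markers of the cells in the scrapings moved with some of these days. Of 8 crypt stem cell markers, 7 lay below 0 on late heme and 2 were called lower, Sox9 (-0.33, adjusted p = 0.0133 in limma) and Rnf43 (-0.40, adjusted p = 0.0232), with list means of -0.13 and -0.21 in the heme pools of days 7 and 14 against -0.05 to 0.04 in the control pools. Neither was called in the blocked fit (0.0686 and 0.0569) or without the heme pool of day 14 (0.158 and 0.265). Of 7 goblet cell markers 4 were called lower. That count was 0 with the block, 1 with the second quantile normalization, 2 with median centring and 1 to 3 without 1 control pool. Of 16 colonocyte markers, all of them measured, 3 were higher and 2 lower. Beside these late counts, 8.45% of all genes were called lower and 5.22% higher. Pancreatic acinar genes stood high in both day 2 pools (means of 2.90 and 3.43 log2 above the control mean) and between -0.78 and -0.58 in the other 7. Smooth muscle genes ranged from -0.82 to 1.14 in the control and from -0.89 to 0.59 in the heme pools, with the highest values in the 2 pools of day 7, and fibroblast genes from -0.59 to 0.49 and from -0.65 to 0.16. For B and plasma cells the ranges were -0.21 to 0.18 and -0.40 to 0.10, and for T cells and macrophages -0.17 to 0.21 and -0.23 to 0.03. Of 11 p53 targets 2 were called lower on late heme (0 with the block), beside 8.45% of all genes. The part of these cells in the members' values was not tested. Without both pools of day 2 the adjusted p in limma was 0.0166 for Tsr1, 0.0360 for Wdr43 and 0.0599 for Nhp2, and without both pools of day 7 it was 0.0121, 0.0462 and 0.0750.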

How the data were processed

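The authors deposited log2 expression values per probeset for 9 Affymetrix arrays, made with RMA per the submitters' processing notes (version: not given in the sources used here). Its median polish of the probes of a probeset leaves equal values in some pools (12 of 34 members share a value between pools, and Wdr12 has a control SD of 0), so spread can be understated. Precision is limited by there being 9 arrays, which have no depth.

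The platform annotation gave 21789 of 35556 probesets 1 symbol, 1621 several (left out) and 12146 none. Of the first, 21698 were matched by Entrez ID to RefSeq, with 0 symbols changed. The brightest probeset of each gene was kept, and genes at or above the 25th percentile of means (4.716 log2) were tested. limma 3.58.1 in R 4.3.3 (lmFit, eBayes with trend, checked on simulated data) used the 9 arrays in 3 groups for early and late heme, or 2 for diet, and 8 arrays for the change of the diet difference. Tables used Python 3.11.15 and figures matplotlib 3.10.9.

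The members and lists were chosen with earlier results of these data known. Of 396 genes on other lists 347 were matched. Values in every pool are given for the highest and lowest late difference in each role and the 6 members with the smallest late p. Up to 3 genes of another list are named, by late p. Same-day pools share a day in the labels: their deviations correlated with r = 0.658, 0.000, 0.300 and 0.204 on days 2, 4, 7 and 14. For a control and a heme pool of different days r ran from -0.475 to 0.396. The day block is therefore given where it changes a call. Alternatives were the filter, the trend, probeset means, median centring, quantile normalization, the block and leaving out pools.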

Additional observations from a re-analysis of the deposited data

Results flagged for a closer look

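In 4 of 69 groups of pools checked among the members, 1 pool lay apart from the rest, where chance gives about 1 in 20. Nolc1 stood at 7.64 log2 in the control pool of day 4 against 7.80 to 7.86 in the other control pools. Ncl stood at 10.10 in the control pool of day 14 against 9.94 to 9.96. Wdr75 and Bms1 stood at 8.22 and 8.21 in the control pool of day 2 against 7.90 to 7.95 and 8.03 to 8.08. All 4 are control pools, and none of these genes was called in a comparison. Wdr43 differed between late and early heme by a log2 difference of -0.28 in the test of that difference itself.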

How the results depend on the processing

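With the day as a block the late heme comparison called 0 members instead of 3, with log2 differences of -0.0654 for Nob1 and -0.0328 for Bop1 in place of values above 0. Without a single control pool 2 or 3 were called. Without both day 7 pools, an alternative chosen after seeing the data, the late median was -0.0460, beside 0.0005 for all genes. With the second quantile normalization it called 2 higher and 2 lower instead of 1 and 2, the late median was 0.0010 instead of -0.0489, and Dkc1 and Ddx21 stood at 0.0327 and 0.0522 in place of values below 0. Without both day 2 pools, also added later, Ddx21 stood at 0.0134 and Nob1 at -0.0264. Without single pools the late median ran from -0.0561 to -0.0235, Ddx21 from -0.0376 to 0.0215, Dkc1 from -0.0751 to 0.0365 and Nob1 from -0.0264 to 0.0419.

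The comparison of late with early heme called 3 members with the filter at the median of gene means, 0 without the intensity trend, 2 with arrays centred on their medians, 4 with quantile normalization, 0 without both day 2 pools, 3 without both day 7 pools, and 0 to 5 without single pools. The change of the diet difference had a median of -0.0887 with quantile normalization and -0.1750 to -0.0840 without single pools. The cause of these changes was not tested. Where 1 late pool was left, it was assumed to vary like the other groups. Median centring moved the late median of all genes by -0.0104 and quantile normalization by 0.0057. The diet, early heme and control slope comparisons called 0 members under each alternative run for them.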
